A study of Mus musculus with 8 samples.

Results

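Ribosome biogenesis was examined here through 58 genes that encode RNA polymerase I (Pol I) and the factors that process ribosomal RNA in the nucleolus. The genes were found in the count files by their gene symbols, and all 58 were present among the 54838 genes listed and among the 12405 genes with enough reads to be tested. They fall into 4 groups by role, with 7 genes of the Pol I machinery, 11 of the small nucleolar ribonucleoproteins (snoRNPs) and general nucleolar proteins, 26 of the small subunit processome and 14 of large subunit assembly. RNA-seq was performed on 8 samples of mouse *iMLL-AF9* bone marrow cells, 4 given the vehicle DMSO and 4 given IOX5, a small-molecule inhibitor of the HIF-prolyl hydroxylases that mark HIF-α for degradation. All 8 samples carried the MLL-AF9 oncogene from an allele that doxycycline induces and had an otherwise wild-type genotype by their labels, which call the cells leukaemic stem cells, whereas the design text calls them preleukaemic. The dose and duration of IOX5 are not given in the labels, nor is it stated whether samples came from separate animals or cultures, so p-values measure the spread between these samples, which may be technical. The files held 12343770 to 14116054 reads on genes per DMSO sample and 11351507 to 12708888 per IOX5 sample.

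Ribosomes are built in the nucleolus, where Pol I transcribes one long precursor of the ribosomal RNAs and snoRNPs guide its chemical modification. The small subunit processome folds and cleaves the part of the precursor that becomes the small subunit RNA, and a separate series of assembly factors, helicases and ATPases matures the large subunit before both are exported to the cytoplasm. The pathway is a major consumer of energy in dividing cells, and in leukemic cells its genes are known as targets of MYC, which binds the E-box sequence CACGTG. The factors are themselves encoded by messenger RNAs made by RNA polymerase II, and poly(A)-selected libraries measure those messengers and not the ribosomal RNA.

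Several of the genes also carry snoRNAs in their introns, so a single primary transcript can yield both a nucleolar protein and a guide RNA. Of the 58 genes, 9 (15.5%) hosted at least 1 annotated snoRNA, 31 snoRNAs in all, against 203 of 11254 protein-coding genes tested (1.8%). The hosts were *Taf1d*, *Ncl*, *Nop56*, *Nop58*, *Dkc1*, *Wdr43*, *Tsr1*, *Gnl3* and *Ppan*. The following 3 are box C/D snoRNAs, shown because their hosts encode nucleolar proteins whose values are given below, with the C box core TGATGA and the D box CTGA in capitals. They lie on build GRCm38 at chr1:86356261-86356330 (minus strand, an intron of *Ncl*), chr1:59704790-59704873 (plus strand, an intron of *Nop58*) and chr2:130275506-130275573 (plus strand, an intron of *Nop56*), and the sequences are those of GENCODE M21.
Snord82: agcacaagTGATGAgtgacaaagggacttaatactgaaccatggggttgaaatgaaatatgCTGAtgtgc
Snord11: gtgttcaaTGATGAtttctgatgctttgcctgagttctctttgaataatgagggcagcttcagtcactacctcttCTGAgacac
Snord110: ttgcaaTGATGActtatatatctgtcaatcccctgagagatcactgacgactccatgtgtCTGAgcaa
The 31 snoRNAs together received 277 reads over the 8 libraries, too few to compare between groups in libraries made from polyadenylated RNA.

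The promoters of the genes were read from RefSeq (GRCm38.p6), as the 250 bases before and 50 bases after each annotated start. Promoters were found for 49 of the 58 genes, 56 in all because some genes have several starts. The E-box CACGTG, searched on both strands, was in 13 of the 56 (23.2%), against 10.1% of 11481 promoters of the protein-coding genes tested and 7.15% of all 32851 promoters in the table. CCGGAAG, the core of the sites bound by ETS-family factors, was in 20 (35.7%), against 18.4% and 8.86%. The shorter ACGTG, the core of the hypoxia response element and itself contained in CACGTG, was in 21 (37.5%), against 26.1% and 19.6%. The palindromic site of NRF1 was in 1 (1.79%), against 2.15% and 0.971%. These matches describe letters in a window and say nothing of whether a factor was bound. The promoters of 4 genes are shown, *Ddx21* and *Nol10* because they passed the test described below, and *Mdn1* and *Nop2* because they hold an E-box. Capitals mark CACGTG and CCGGAAG or its reverse complement CTTCCGG. They lie at chr10:62602249-62602548 (*Ddx21*, minus strand), chr12:17348243-17348542 (*Nol10*, plus strand), chr4:32656869-32657168 (*Mdn1*, plus strand) and chr6:125131633-125131932 (*Nop2*, plus strand).
Ddx21: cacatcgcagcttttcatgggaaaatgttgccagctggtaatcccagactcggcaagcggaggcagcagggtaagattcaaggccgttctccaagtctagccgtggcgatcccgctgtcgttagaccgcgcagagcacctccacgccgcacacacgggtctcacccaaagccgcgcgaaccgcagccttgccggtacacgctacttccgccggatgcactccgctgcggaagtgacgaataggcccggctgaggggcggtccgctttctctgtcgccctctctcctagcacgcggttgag
Nol10: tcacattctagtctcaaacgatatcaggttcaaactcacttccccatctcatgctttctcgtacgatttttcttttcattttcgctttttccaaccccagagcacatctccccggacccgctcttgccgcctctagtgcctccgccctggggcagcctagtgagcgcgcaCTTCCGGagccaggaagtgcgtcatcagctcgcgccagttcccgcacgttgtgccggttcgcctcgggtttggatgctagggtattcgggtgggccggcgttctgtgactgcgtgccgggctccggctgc
Mdn1: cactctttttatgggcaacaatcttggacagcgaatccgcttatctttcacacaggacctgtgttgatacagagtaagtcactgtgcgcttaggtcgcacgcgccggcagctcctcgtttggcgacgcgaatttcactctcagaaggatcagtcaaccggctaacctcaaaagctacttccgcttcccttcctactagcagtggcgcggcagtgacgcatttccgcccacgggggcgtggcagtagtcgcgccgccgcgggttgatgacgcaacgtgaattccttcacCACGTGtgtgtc
Nop2: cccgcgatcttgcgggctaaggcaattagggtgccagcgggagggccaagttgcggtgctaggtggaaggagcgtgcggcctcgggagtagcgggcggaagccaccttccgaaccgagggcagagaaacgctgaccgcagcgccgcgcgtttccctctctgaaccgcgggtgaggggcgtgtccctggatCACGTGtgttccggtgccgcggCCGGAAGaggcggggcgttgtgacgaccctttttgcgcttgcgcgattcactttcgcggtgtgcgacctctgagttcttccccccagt
The *Ddx21* window held neither motif. The *Nop2* window held both, with CACGTG starting 60 bases and CCGGAAG 38 bases before the annotated start. In the *Mdn1* window CACGTG began 38 bases after the start. In the *Nol10* window CTTCCGG began 80 bases before the start.

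The treatment label and the cell label were checked first. All 6 genes listed as HIF targets were higher with IOX5. Levels are given as CPM, read counts scaled to library size and to TMM normalization factors. *Pdk1*, which encodes a kinase that restrains mitochondrial pyruvate use, was at 168.1 ± 17.5 CPM in DMSO and 267.2 ± 7.02 in IOX5 (SD, n = 4), a log2 fold change of 0.67 ± 0.079 (SE, edgeR adjusted p = 0.0157). *Bnip3*, a mitochondrial BH3-domain protein, rose from 104.5 ± 30.4 to 206.8 ± 14.6 CPM (log2 fold change 0.98 ± 0.20, edgeR adjusted p = 0.0469). *Egln3* differed by 0.88 ± 0.28 without passing the test (edgeR adjusted p = 0.136), and passed it when the replicate number was a term of the model (adjusted p = 3.1e-05). Myeloid progenitor markers were present throughout, with all 10 listed genes detected and *Mpo*, the myeloperoxidase of granule precursors, the most abundant at 2195 ± 1209 CPM in DMSO and 2626 ± 1480 in IOX5. The summed level of the 10 was 2616, 2387, 4641 and 4408 CPM in DMSO replicates 1 to 4. In IOX5 replicates 1 to 4 it was 2894, 2749, 5322 and 5288 CPM. The sum, led by *Mpo*, was higher in replicates 3 and 4 of both groups than in replicates 1 and 2. *Cd34* had the same split, at 26, 23.2, 133.1 and 153.0 CPM in DMSO, as had *Kit* and *Flt3*. In DMSO *Ptprc*, *Hoxa9*, *Hoxa10*, *Meis1*, *Spi1* and *Itgam* went the other way, *Hoxa9* being at 244.3, 292.5, 225.0 and 239.2 CPM.

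With IOX5 the transcripts of ribosome biogenesis factors were slightly lower across all 4 groups. The log2 fold change was below 0 for 54 of the 58 genes (93.1%), against 47.2% of all genes tested. Its median was -0.19, against 0.02 over all genes. It ranged from -0.45 (*Nol10*) to 0.06 (*Polr1c*). The genes were chosen with earlier results of these data known, so these values are descriptions and not a test. The 4 genes above 0 were *Polr1c*, *Fbl*, *Nop10* and *Nob1*. By the edgeR quasi-likelihood test with Benjamini-Hochberg adjustment over all genes, 2 genes fell (*Ddx21* and *Nol10*) and 0 rose, and 28 were lower at an unadjusted p under 0.05. In the same test 1.25% of all genes were called lower, 0.774% were called higher, and 11.2% were lower at an unadjusted p under 0.05. The changes were small, the fitted *Nol10* level in IOX5 being 0.732 of that in DMSO. Because these are bulk samples, fewer cells of a given kind and less RNA per cell cannot be told apart.

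Samples with the same replicate number resembled each other, although numbers 3 and 4 were not told apart. In deviations from the group means, DMSO replicate 4 correlated with IOX5 replicate 3 at 0.685 and with IOX5 replicate 4 at 0.636. With the number as a term of the edgeR model 22 of the 58 genes (37.9%) fell and 0 rose. Over all genes 9.43% were called lower and 11.2% higher. These 22 were *Polr1a*, *Polr1b*, *Polr1e*, *Ubtf*, *Taf1d*, *Ncl*, *Npm1*, *Nop58*, *Nolc1*, *Ddx21*, *Utp15*, *Wdr36*, *Wdr43*, *Heatr1*, *Nol10*, *Nol11*, *Bop1*, *Nop2*, *Nip7*, *Mrto4*, *Nvl* and *Mdn1*. DESeq2 without that term called 9 lower and 0 higher, against 4.85% of all genes called lower and 3.94% called higher. Limma voom with sample weights called 12 lower and 0 higher, against 4.92% and 3.43%. Both calls of the edgeR test without the term were lost under some other settings, the adjusted p of *Ddx21* ranging from 0.000341 to 0.178 and that of *Nol10* from 0.00101 to 0.14 over the 24 alternatives. Leaving out any 1 of DMSO replicates 1 to 4 or of IOX5 replicates 1 and 3 left 0 of the 58 genes called by edgeR without the term, with 15 to 27 lower at an unadjusted p under 0.05. In those 6 fits, in the same order, 0.0319%, 0.0558%, 0%, 0%, 0.279% and 0% of all genes were called lower. At an unadjusted p under 0.05 it was 9.95%, 8.75%, 8.58%, 6.97%, 9.23% and 9.33% of all genes, against 27, 19, 26, 15, 20 and 25 of the 58. Without IOX5 replicate 2 it called 1, against 0.605% of all genes called lower, and without IOX5 replicate 4 it called 9, against 2.64%. With the term, leaving out replicate numbers 1, 2, 3 and 4 in turn gave 11, 12, 6 and 33 genes, against 5.28%, 8.2%, 3.23% and 8.48% of all genes called lower. Of the 22, 6 were called whichever number was left out, namely *Polr1b*, *Taf1d*, *Ddx21*, *Nol10*, *Nip7* and *Mdn1*. The log2 fold change without the term moved by more than 1.5 times for 22 of the 58 genes when IOX5 replicate 2 was left out and for 21 when IOX5 replicate 4 was. Of the 26 genes moved by either, 1 (*Npm1*) was among the 22 called with the term. The others were *Polr1c*, *Rrn3*, *Fbl*, *Nop56*, *Nhp2*, *Nop10*, *Gar1*, *Dkc1*, *Utp4*, *Utp18*, *Wdr75*, *Imp3*, *Mphosph10*, *Rrp9*, *Rcl1*, *Nob1*, *Pno1*, *Pes1*, *Wdr12*, *Ebna1bp2*, *Rrs1*, *Gnl3*, *Gnl2*, *Nop16* and *Ppan*.

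**Figure D1:**
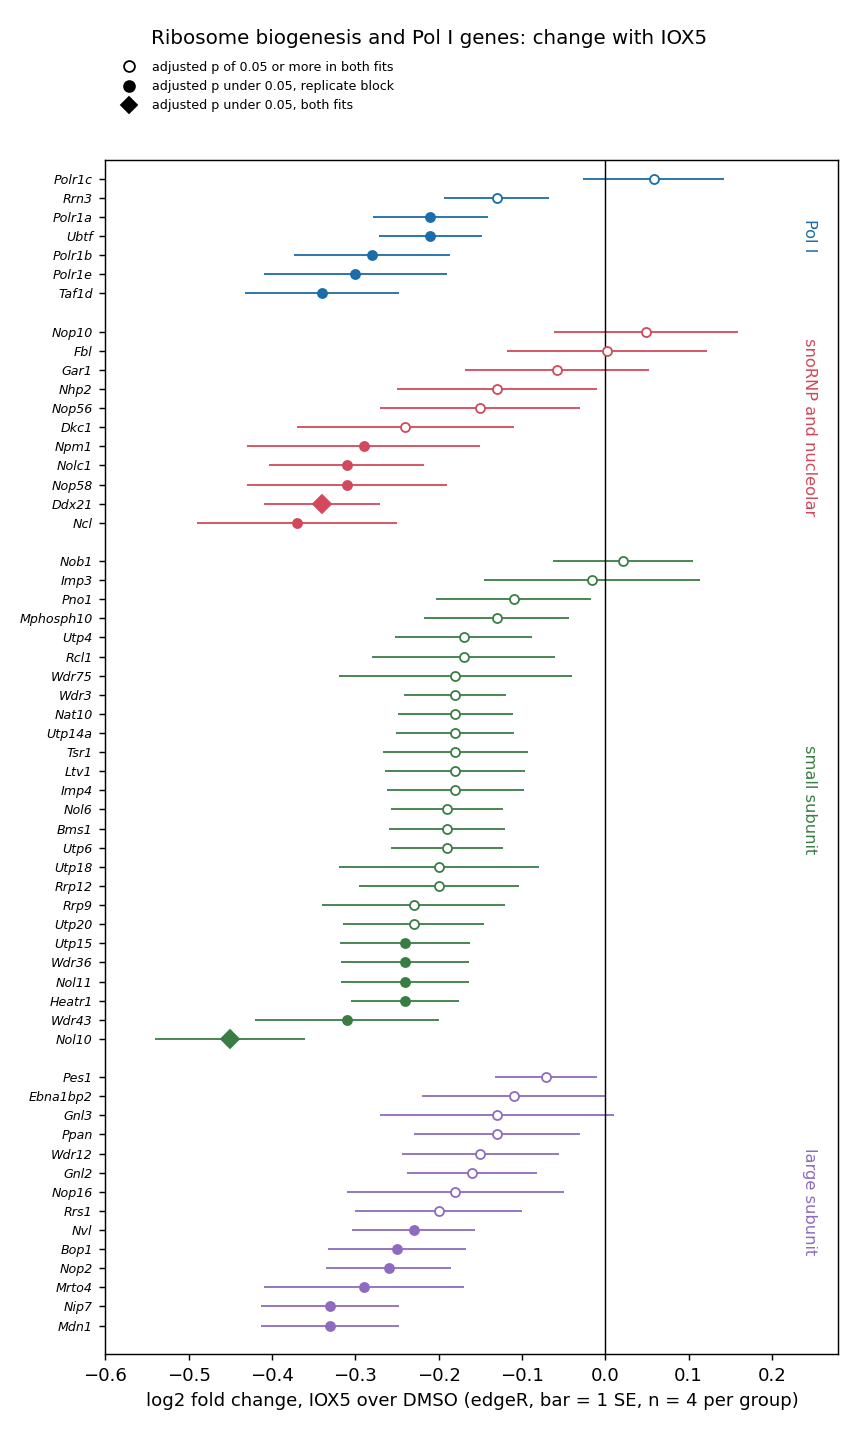
Log2 fold change of each of the 58 genes, IOX5 over DMSO, on the x axis, by group (colours), with bars of 1 SE from edgeR (n = 4 per group). Filled symbols passed the test with the replicate number in the model (22 genes) and diamonds passed it without as well (*Ddx21* and *Nol10*). All but 4 of the points lie below 0.

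Without any model, every IOX5 sample was below every DMSO sample for 18 of the 58 genes (31%), as it was for 8.3% of all genes tested. In no case was every IOX5 sample above every DMSO sample, which held for 5.98% of all genes. Within pairs of equal replicate number, 35 genes (60.3%) were lower with IOX5 in all 4 pairs, against 19.8% of all genes.

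The size of the difference varied between samples. Relative to the DMSO mean of each gene, the median over the 58 genes was -0.06, 0.06, -0.03 and 0.05 on the log2 scale in DMSO replicates 1 to 4. In IOX5 replicates 1 to 4 it was -0.24, -0.37, -0.18 and -0.03. IOX5 replicate 2 was the lowest of the IOX5 samples for 47 genes and lay below all DMSO samples for 58. IOX5 replicate 4 was the highest of the IOX5 samples for 47 genes, exceeded all DMSO samples for 14 and lay below all of them for 19. Paired by number, 54, 58, 55 and 35 of the 58 genes were lower with IOX5 in pairs 1 to 4, with median differences of -0.18, -0.43, -0.16 and -0.03. Without replicates 2 and 4 the model with the replicate term called 14 of the 58 genes lower, against 6.63% of all genes, a setting chosen after seeing the data.

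**Figure D2:**
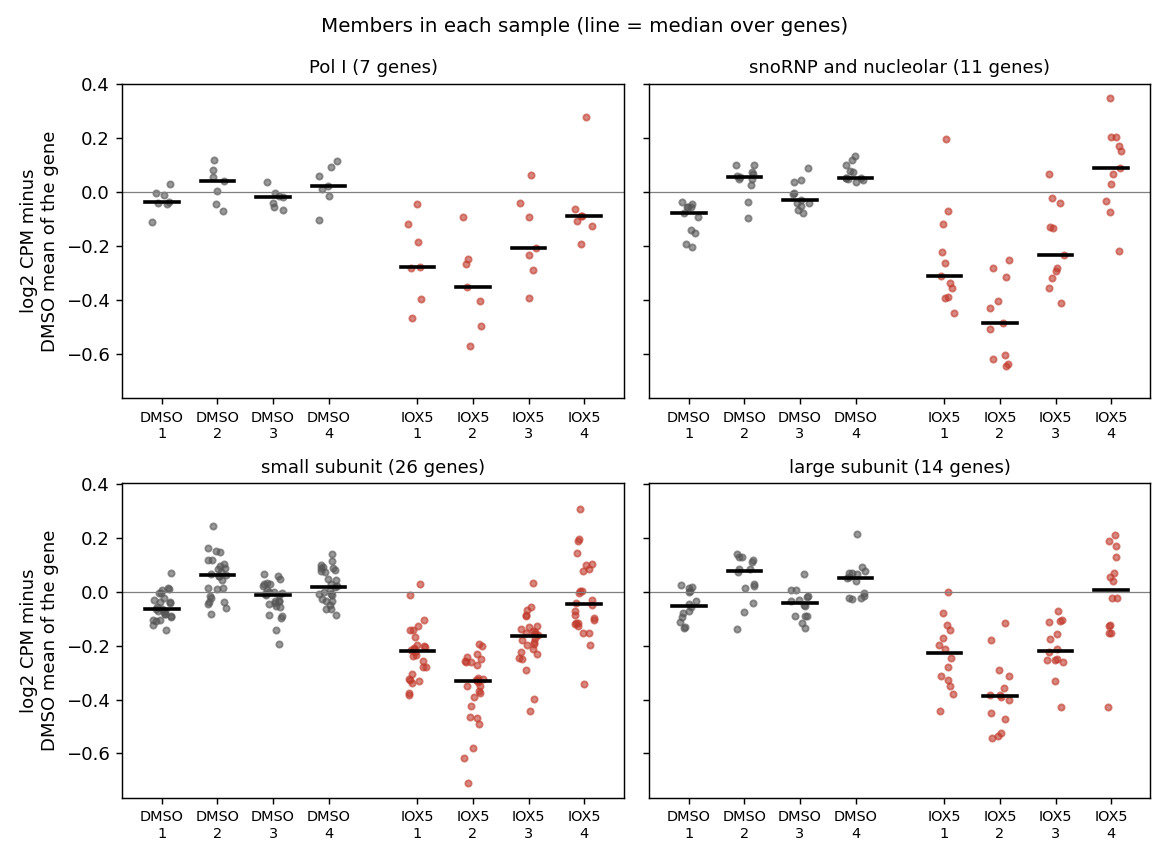
Each point is 1 gene in 1 sample, as log2 CPM minus the mean of that gene over the 4 DMSO samples (y axis), in 4 panels by group, with a black line at the median. IOX5 replicate 2 is lowest (median over the 58 genes -0.37) and IOX5 replicate 4 lies near the DMSO samples (-0.03).

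The Pol I machinery includes catalytic subunits, an initiation factor and promoter-binding factors. Of its 7 genes 6 were lower with IOX5 and the median log2 fold change was -0.21, and 4 had all IOX5 samples below all DMSO samples (*Polr1a*, *Polr1b*, *Rrn3* and *Ubtf*). None passed the edgeR test without the replicate term, 5 being lower at an unadjusted p under 0.05, while DESeq2 called 2, and 5 fell in edgeR with the replicate term. Over all genes, 8.3% had every IOX5 sample below every DMSO sample and 11.2% were lower at that unadjusted p. DESeq2 called 4.85% of all genes lower, and edgeR with the term 9.43%.

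*Polr1a*, the largest subunit of Pol I (chr6:71909053-71984935, plus strand, GRCm38), was at 145.5, 151.0, 142.4 and 147.7 CPM in DMSO replicates 1 to 4. In IOX5 it was at 120.8, 114.9, 137.3 and 134.2 CPM. The groups did not overlap, and the log2 fold change was -0.21 ± 0.069 (SE, n = 4, edgeR adjusted p = 0.142, with the replicate term 0.0457). The *Polr1a* call with the term was lost whichever replicate number was left out (edgeR adjusted p = 0.163, 0.141, 0.0791 and 0.0535 without numbers 1 to 4) and with DESeq2 and the term (adjusted p = 0.0923), and with a trend on transcript length removed the value was -0.12. *Polr1b*, the other large subunit of the catalytic core, went from 83.8 ± 4.45 to 68.9 ± 8.46 CPM (log2 fold change -0.28 ± 0.094, edgeR adjusted p = 0.144, with the replicate term 0.0128). *Polr1e*, a subunit found only in Pol I, was the least abundant of the 58 genes by CPM at 28.6 ± 1.84 in DMSO and 23.2 ± 2.99 in IOX5, with overlapping groups.

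*Ubtf* encodes the upstream binding factor that coats ribosomal DNA (chr11:102304560-102319742, minus strand). Its level was 252.5, 273.6, 246.7 and 262.9 CPM in DMSO and 212.9, 217.8, 219.8 and 243.1 CPM in IOX5, so that the highest IOX5 sample, replicate 4, lay just under the lowest DMSO sample. The log2 fold change was -0.21 ± 0.062 (SE, n = 4, edgeR adjusted p = 0.108, with the replicate term 0.0322). *Taf1d*, a subunit of the promoter selectivity factor that recruits Pol I, was at 133.0, 139.2, 147.5 and 155.7 CPM in DMSO and 109.0, 101.8, 109.3 and 133.2 CPM in IOX5. Only IOX5 replicate 4 reached the DMSO range, and the log2 fold change was -0.34 ± 0.092 (edgeR adjusted p = 0.0876, with the replicate term 0.00283). *Rrn3*, the factor that carries Pol I to the promoter, differed by -0.13 ± 0.063 (edgeR adjusted p = 0.295, with the replicate term 0.192) with groups that did not overlap.

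*Polr1c* was the exception in this group. It encodes a subunit that Pol I shares with RNA polymerase III, and stood at 64.2, 66.3, 65.3 and 69 CPM in DMSO and 64.2, 62, 69.2 and 80.3 CPM in IOX5. The log2 fold change was 0.06 ± 0.085 (edgeR adjusted p = 0.746), and its sign turned when IOX5 replicate 4 was left out (-0.024).

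The snoRNP and nucleolar group holds the most abundant transcripts of the pathway. Its median log2 fold change was -0.24, with 9 of 11 genes lower, 1 called by edgeR without the replicate term (*Ddx21*) and 5 with it. Over all genes 1.25% were called lower without the term and 9.43% with it. The median was -0.12 without IOX5 replicate 2 and -0.36 without IOX5 replicate 4. *Ddx21* alone had groups that did not overlap, while 8.3% of all genes had every IOX5 sample below every DMSO sample. IOX5 replicate 4 was the highest IOX5 sample for 10 of the 11 genes and exceeded all DMSO samples for 5.

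*Ddx21* encodes a nucleolar RNA helicase (chr10:62580251-62602281, minus strand, the promoter of which is shown above). It was at 574.6, 628.6, 569.5 and 617.9 CPM in DMSO. In IOX5 it was at 472.3, 426.4, 478.7 and 513.5 CPM. All 4 IOX5 samples lay below all 4 DMSO samples, and the log2 fold change was -0.34 ± 0.070 (SE, n = 4, edgeR adjusted p = 0.0485, with the replicate term 0.00498).

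*Ncl*, nucleolin, was at 2493, 2969, 2714 and 2924 CPM in DMSO and 2025, 1777, 2083 and 2705 CPM in IOX5. *Npm1*, nucleophosmin, was at 1904, 2336, 2164 and 2331 CPM in DMSO and 1659, 1415, 1776 and 2315 CPM in IOX5. In both genes IOX5 replicates 1 to 3 were below all DMSO samples and IOX5 replicate 4 was within the DMSO range. The log2 fold change of *Ncl* was -0.37 ± 0.12 (edgeR adjusted p = 0.147, with the replicate term 0.00968) and that of *Npm1* -0.29 ± 0.14 (edgeR adjusted p = 0.3, with the replicate term 0.0392). The *Npm1* value was -0.19 without IOX5 replicate 2 and -0.43 without IOX5 replicate 4, and its call with the term was lost without number 1, 2 or 3 (edgeR adjusted p = 0.0839, 0.121 and 0.138). Together these 2 genes made up much of the reads of the pathway, with a summed level of 4959 ± 420.6 CPM in DMSO of 13432 ± 735.1 for all 58 genes, and 3939 ± 774.1 of 11281 ± 1546 in IOX5. The other 56 genes summed to 8474 ± 321.2 CPM in DMSO and 7342 ± 776.3 in IOX5.

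The core proteins of box C/D snoRNPs, which methylate ribosomal RNA, did not share one value. *Nop58* was at 392.1 ± 25 CPM in DMSO and 317.0 ± 59.5 in IOX5 (log2 fold change -0.31 ± 0.12, edgeR adjusted p = 0.211, with the replicate term 0.0221). Its partner *Nop56* differed by -0.15 ± 0.12 (edgeR adjusted p = 0.5, with the replicate term 0.119), by -0.07 without IOX5 replicate 2 and by -0.27 without IOX5 replicate 4. *Fbl*, fibrillarin, the methyltransferase of the complex, was at 159.6, 176.2, 170.0 and 175.7 CPM in DMSO and 156.8, 142.9, 165.5 and 217.1 CPM in IOX5. Its mean was the same in both groups, at 170.4 ± 7.71 and 170.6 ± 32.4 CPM, with IOX5 replicates 1 and 2 below the DMSO range and replicate 4 above it. It was lower with IOX5 in 3 of 4 pairs, and the log2 fold change was -0.14 without IOX5 replicate 4 and 0.08 without IOX5 replicate 2. Whether *Fbl* differed from *Nop58* in its response was not tested.

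Of the box H/ACA proteins, which convert uridines of ribosomal RNA to pseudouridine, *Dkc1*, the enzyme, was at 231.9 ± 10.2 CPM in DMSO and 196.5 ± 38.7 in IOX5 (log2 fold change -0.24 ± 0.13, edgeR adjusted p = 0.341, with the replicate term 0.0596). The *Dkc1* value was -0.12 without IOX5 replicate 2 and -0.36 without IOX5 replicate 4. Its small partners *Nhp2*, *Gar1* and *Nop10* had log2 fold changes of -0.13, -0.06 and 0.05, and none of the 4 passed either edgeR fit. *Nolc1*, a chaperone of both classes of snoRNP, went from 346.4 ± 17 to 280.0 ± 36.6 CPM (log2 fold change -0.31 ± 0.093, edgeR adjusted p = 0.114, with the replicate term 0.011).

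**Figure D3:**
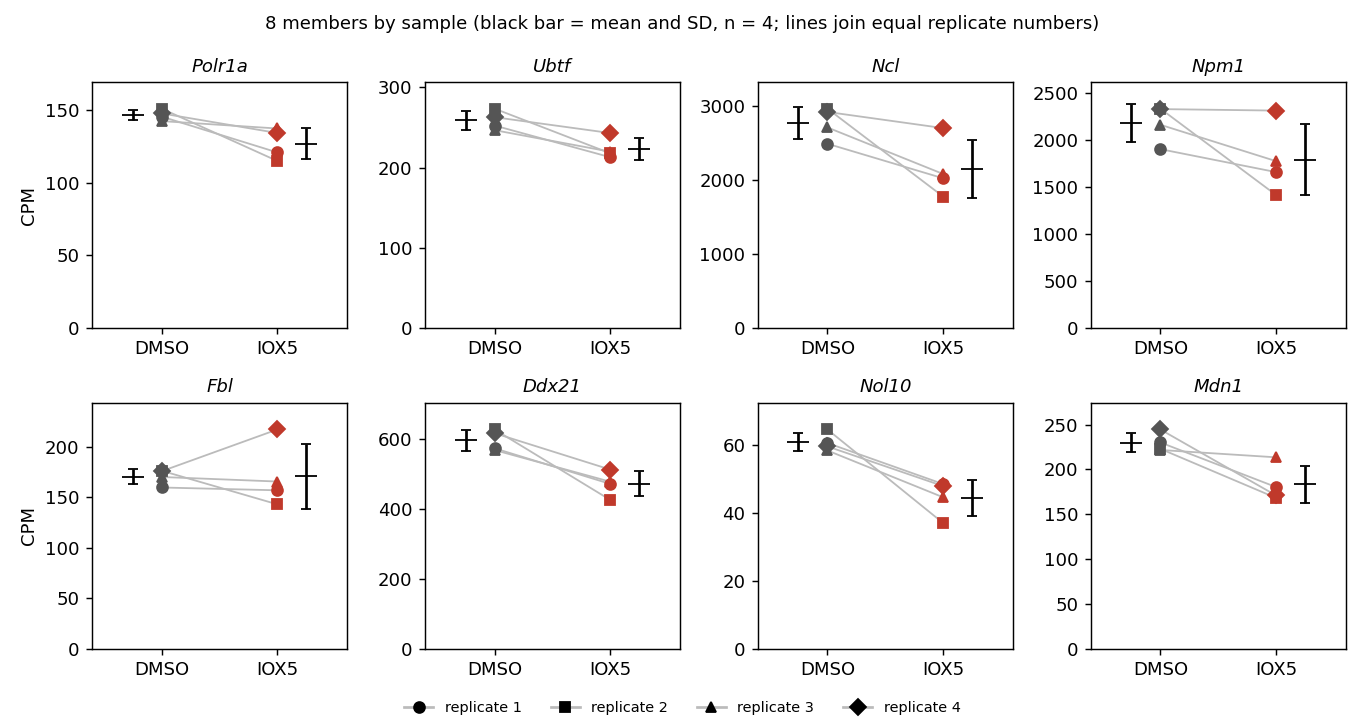
CPM (y axis, from 0) of 8 genes in each sample, DMSO in grey and IOX5 in red, with a symbol per replicate number, lines joining equal numbers and black bars for the mean and SD (n = 4). *Ddx21* and *Nol10* fell in all 4 pairs without overlap, while *Ncl* and *Npm1* in IOX5 replicate 4 were at 2705 and 2315 CPM, within the DMSO range.

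Of the 26 genes of the small subunit processome and its late partners, 25 were lower with IOX5 and the median log2 fold change was -0.18. *Nol10* passed the edgeR test without the replicate term and 6 genes with it, and 9 had groups that did not overlap (*Utp4*, *Utp6*, *Utp15*, *Wdr3*, *Wdr36*, *Heatr1*, *Nol6*, *Nol10* and *Bms1*). Over all genes 1.25% were called lower without the term and 9.43% with it. Every IOX5 sample was below every DMSO sample for 8.3%. *Nol10*, a WD-repeat protein of the processome (chr12:17348458-17430095, plus strand), had the lowest fold change of all 58 genes. It was at 60.6, 64.6, 58.4 and 59.6 CPM in DMSO and 48.5, 37, 44.6 and 47.9 CPM in IOX5. The highest IOX5 sample, replicate 1, lay below the lowest DMSO sample, replicate 3, and the log2 fold change was -0.45 ± 0.090 (SE, n = 4, edgeR adjusted p = 0.0469, with the replicate term 0.00284).

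The proteins that bind the precursor first, during its transcription, are *Utp4*, *Utp15*, *Wdr43*, *Wdr75*, *Heatr1* and *Nol11*. All 6 were lower, against 47.2% of all genes. In edgeR with the replicate term 4 of the 6 fell, against 9.43% of all genes. *Heatr1*, the largest of them, was at 264.3, 290.1, 271.6 and 286.3 CPM in DMSO and 221.0, 221.1, 254.0 and 242.6 CPM in IOX5, without overlap (log2 fold change -0.24 ± 0.065, edgeR adjusted p = 0.0868, with the replicate term 0.0197). *Wdr43* went from 252.9 ± 12.4 to 204.2 ± 33.4 CPM (-0.31 ± 0.11, edgeR adjusted p = 0.169, with the replicate term 0.0152), and only its IOX5 replicate 4 reached the DMSO range. *Wdr75* differed by -0.18 ± 0.14 (edgeR adjusted p = 0.52, with the replicate term 0.124), by -0.07 without IOX5 replicate 2 and by -0.33 without IOX5 replicate 4.

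Another module of the processome holds *Utp6*, *Utp18*, *Wdr3* and *Wdr36*, with log2 fold changes of -0.19, -0.20, -0.18 and -0.24. Of these *Wdr36* fell in edgeR with the replicate term (adjusted p = 0.0217). It had little spread in DMSO, at 147.9, 142.7, 147.2 and 148.2 CPM, and stood at 127.7, 106.0, 127.7 and 135.0 CPM in IOX5. The proteins *Imp3*, *Imp4* and *Mphosph10* act as one complex that pairs the guide snoRNA with the precursor. Their log2 fold changes were -0.02, -0.18 and -0.13, and none passed either edgeR fit.

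The remaining genes of the group act later or as enzymes. *Bms1*, a GTPase, *Rcl1*, its partner, *Nat10*, an RNA acetyltransferase, *Utp20*, a large scaffold, *Utp14a*, which activates a helicase, *Nol6* and *Rrp9* had log2 fold changes between -0.23 and -0.17. *Rrp12*, needed for export, differed by -0.20 ± 0.096, by -0.11 without DMSO replicate 2 and by -0.26 without DMSO replicate 3. The last factors act on the nearly finished subunit in the cytoplasm. *Nob1*, the nuclease that makes the last cut, was at 79.6, 78.2, 80.1 and 85.2 CPM in DMSO and 82.3, 70.2, 82.6 and 92.6 CPM in IOX5, a log2 fold change of 0.02 ± 0.084. *Pno1*, its partner, differed by -0.11 ± 0.093, and *Tsr1* and *Ltv1* by -0.18 ± 0.087 and -0.18 ± 0.084. None of these passed either edgeR fit.

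All 14 genes of large subunit assembly were lower with IOX5, with log2 fold changes from -0.33 to -0.07 and a median of -0.19. None was called by edgeR without the replicate term, although 6 were lower at an unadjusted p under 0.05, DESeq2 called 3, and 6 fell with the term in edgeR. Over all genes 11.2% were lower at that unadjusted p. DESeq2 called 4.85% of all genes lower, and edgeR with the term 9.43%. *Mdn1*, a giant ATPase that strips assembly factors from the maturing subunit (chr4:32657119-32775217, plus strand), was at 230.1, 223.0, 221.7 and 244.6 CPM in DMSO and 180.3, 168.2, 213.5 and 170.9 CPM in IOX5. The highest IOX5 sample was replicate 3 here, not replicate 4, and the groups did not overlap (log2 fold change -0.33 ± 0.083, edgeR adjusted p = 0.0766, with the replicate term 0.00874). *Nip7*, an early factor, was at 78, 78.9, 72.6 and 79.5 CPM in DMSO and 62.1, 52.9, 61.3 and 69.4 CPM in IOX5, also without overlap (-0.33 ± 0.083, edgeR adjusted p = 0.0746, with the replicate term 0.00723). *Nop2*, a methyltransferase of the large subunit RNA whose promoter is shown above, went from 164.6 ± 11.7 to 137.2 ± 10 CPM (-0.26 ± 0.075, edgeR adjusted p = 0.102, with the replicate term 0.023).

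*Bop1*, *Pes1* and *Wdr12* form one complex that is required for maturation of the large subunit RNA. *Bop1* fell in edgeR with the replicate term (-0.25 ± 0.083, adjusted p = 0.0168, without the term 0.147). *Wdr12* and *Pes1* differed by -0.15 ± 0.094 and -0.07 ± 0.061 and passed neither fit, and whether the 3 differed from each other was not tested. *Nvl*, an ATPase that acts with the exosome's helicase, and *Mrto4*, a stalk assembly factor, had log2 fold changes of -0.23 and -0.29 and fell with the term. With the term and a trend on transcript length removed, *Nvl* was at -0.14 and not called (edgeR adjusted p = 0.138). *Mrto4* was at -0.35 and called (0.00923). *Gnl3*, nucleostemin, whose exons overlap *Pbrm1* on the opposite strand, at 188.4 ± 20.5 CPM in DMSO and 171.9 ± 34.8 in IOX5, and its relative *Gnl2*, at 104.6 ± 4.51 and 93.5 ± 9.02, passed neither fit. *Ebna1bp2*, *Rrs1*, *Nop16* and *Ppan* lay between -0.20 and -0.11 and passed neither fit.

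Levels between genes were compared per kilobase of the longest coding transcript. In DMSO they spanned from 1337 ± 124.4 CPM per kb for *Npm1* through 338.3 ± 26.7 for *Ncl* and 229.7 ± 21.5 for *Nhp2* down to 9.57 ± 0.618 for *Polr1e*. The order depends on the transcript model, since that of *Ncl* is 8202 bases long for a coding sequence of 2121 bases. Per kilobase of coding sequence *Npm1* (2493 ± 231.8) and *Ncl* (1308 ± 103.1) remained the highest, and *Mdn1* (13.7 ± 0.627) was the lowest. The Pol I subunits *Polr1a* and *Polr1b*, at 15.9 ± 0.391 and 21 ± 1.11 CPM per kb of transcript in DMSO, stood well under the subunit shared with Pol III, *Polr1c*, at 50.4 ± 1.58.

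Among the 58 genes, longer transcripts had lower fold changes. Pearson's r between the log2 fold change and log2 transcript length was -0.47 and Spearman's rho -0.47 over the 58 genes. Over 12402 genes tested they were -0.12 and -0.15. The genes share libraries and are not independent replicates, so these are descriptions. By coding length r was -0.40 over the 58 genes. The 8 genes under 1500 bases had a median log2 fold change of -0.04, the 15 from 1500 to 2500 bases -0.17, the 19 from 2500 to 4000 bases -0.20 and the 16 of 4000 bases or more -0.23. Of the 15 longest genes, 9 had every IOX5 sample below every DMSO sample, and of the 15 shortest 0. Over all genes, of any length, the share was 8.3%, which 0 of 15 lies near. With a trend on length over all genes removed, an alternative added after seeing the data, the median of the 58 genes was -0.17 and 57 were lower. The calls changed more than the median. Without the replicate term *Ddx21* was no longer called (edgeR adjusted p = 0.0813) and *Taf1d* was (0.037), against 1.02% of all genes called lower. The log2 fold change of *Ddx21* went from -0.34 to -0.31 and that of *Taf1d* from -0.34 to -0.40. With the term 15 of the 22 genes were still called, against 9.48% of all genes, *Nhp2* and *Rrp9* were added, and the 7 lost were *Polr1a*, *Polr1e*, *Ubtf*, *Ncl*, *Nop58*, *Heatr1* and *Nvl*. Their log2 fold changes with the term were -0.21, -0.31, -0.21, -0.38, -0.32, -0.25 and -0.23 in that order. With the trend removed as well they were -0.12, -0.30, -0.18, -0.30, -0.23, -0.18 and -0.14. Without the term *Utp20* went from -0.23 to -0.14, *Wdr12* from -0.15 to -0.05 and *Gar1* from -0.06 to -0.11. Whether the relation with length is a property of the libraries was not tested beyond this.

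**Figure D4:**
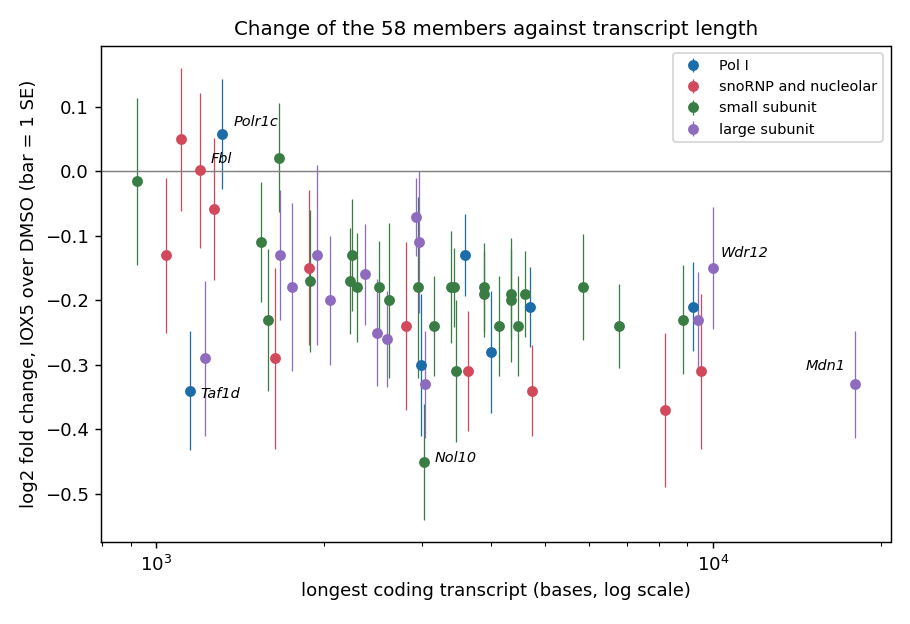
Log2 fold change of the 58 genes, IOX5 over DMSO (y axis, bars of 1 SE from edgeR), against the length of the longest coding transcript in bases (x axis, log scale), coloured by group. Among the 15 shortest genes *Polr1c* and *Fbl* lie near 0 and *Taf1d*, *Mrto4* and *Npm1* at -0.34, -0.29 and -0.29, and *Mdn1*, the longest at 17970 bases, lies at -0.33.

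Genes with and without a promoter motif had similar values. The median log2 fold change was -0.18 for the 13 genes with CACGTG and -0.18 for the 36 genes whose promoters lacked it. With CCGGAAG it was -0.18 (20 genes) and without it -0.21 (29 genes). With ACGTG it was -0.20 (21 genes) and without it -0.18 (28 genes).

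The rest of the pathway was lower on average, in IOX5 replicates 1 to 3 and not in replicate 4. Of 133 other ribosome biogenesis genes, listed by role from general knowledge, 131 were tested and 113 were lower with IOX5, against 47.2% of all genes, and the median log2 fold change was -0.13. Relative to the DMSO mean their median was -0.17, -0.27, -0.14 and 0.03 in IOX5 replicates 1 to 4, and 79 of the 131 were above it in replicate 4. By edgeR 1 fell without the replicate term and 30 with it, against 1.25% and 9.43% of all genes, and 0 rose in either fit. The 48 tested large subunit factors had a median of -0.16, the 13 snoRNP factors -0.17 and the 39 small subunit factors -0.12. It was -0.10 for the 16 exonuclease and exosome genes and -0.05 for the 15 other Pol I genes. The last list includes *Polr2e*, *Polr2f*, *Polr2h*, *Polr2k* and *Polr2l*, which Pol I shares with the other RNA polymerases. Their log2 fold changes were 0.02, -0.04, -0.09, 0.16 and 0.14. The rest of that list ranged from -0.31 (*Mybbp1a*) to 0.03 (*Znrd1*). The gene that fell in both fits was *Utp14b*, a homologue of the processome factor *Utp14a*. It was at 49.4, 53.1, 61 and 58.7 CPM in DMSO and 36.8, 27.3, 40.1 and 34 CPM in IOX5, without overlap (-0.68 ± 0.12, edgeR adjusted p = 0.0346, with the replicate term 0.000279). *Utp14b* lies within *Acsl3* on the same strand, and reads from overlapping genes may not be told apart. *Acsl3* itself differed by -0.29 (edgeR adjusted p = 0.505, with the replicate term 0.014). Next by p-value were *Mybbp1a*, a nucleolar MYB-binding protein (633.5 ± 28.6 to 510.3 ± 41.3 CPM, -0.31 ± 0.071, edgeR adjusted p = 0.0584, with the replicate term 0.00919), and *Rbm19*, a processome RNA-binding protein (59.5 ± 6.56 to 46.7 ± 1.93 CPM, -0.35 ± 0.084, edgeR adjusted p = 0.068, with the replicate term 0.00615). In the other direction *Riok3*, a kinase of late small subunit maturation, was at 196.2 ± 2.5 CPM in DMSO and 212.4 ± 6.45 in IOX5 (0.11 ± 0.048, edgeR adjusted p = 0.229, DESeq2 adjusted p = 0.0412).

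The other RNA polymerases and the ribosomal proteins were read from the same fit. Of 8 subunits of RNA polymerase II, 6 were lower, with a median of -0.05, and 0 passed edgeR, with or without the replicate term, or DESeq2. In edgeR 0 of the 8 had an unadjusted p under 0.05 without the term and 1 with it. Of 20 genes of RNA polymerase III and its factors, 15 were lower with a median of -0.10. *Polr3f* fell (49.3 ± 1.7 to 36.5 ± 2.68 CPM, -0.43 ± 0.071, edgeR adjusted p = 0.026), and with the replicate term *Polr3g* also fell and *Polr3gl* and *Maf1*, the repressor of Pol III, rose. These 2 lower and 2 higher calls of 20 genes lay near the shares over all genes in that fit, 9.43% and 11.2%. *Maf1* was at 81.3 ± 4.84 CPM in DMSO and 93.4 ± 1.55 in IOX5 (0.20 ± 0.059, edgeR adjusted p = 0.107, with the replicate term 0.0373).

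The ribosomal proteins, the other products needed to build a ribosome, were not lower as a list. IOX5 values were above DMSO for 54 of the 80 genes, and the median log2 fold change was 0.05. *Rps29* rose from 375.8 ± 6.11 to 497.2 ± 51.4 CPM (0.40 ± 0.075, edgeR adjusted p = 0.0391), and with the replicate term *Rps28* rose as well. DESeq2 called 4 of the 80 higher (*Rps27*, *Rps28*, *Rps29* and *Rplp1*), and none of the 3 fits called one lower. Over all genes 0.774% were called higher by edgeR without the term, 11.2% with it and 3.94% by DESeq2, so the 2 calls with the term were fewer than that share of 80 genes and the 4 of DESeq2 near it. Their median relative to the DMSO mean was 0.06, -0.12, -0.03 and 0.23 in IOX5 replicates 1 to 4, so replicate 2 was lowest and replicate 4 highest, as for the biogenesis factors. The ribosomal proteins are short, 68 of the 80 under 1500 bases, and many have pseudogenes to which reads can also map. No test compared the lists with each other.

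**Figure D5:**
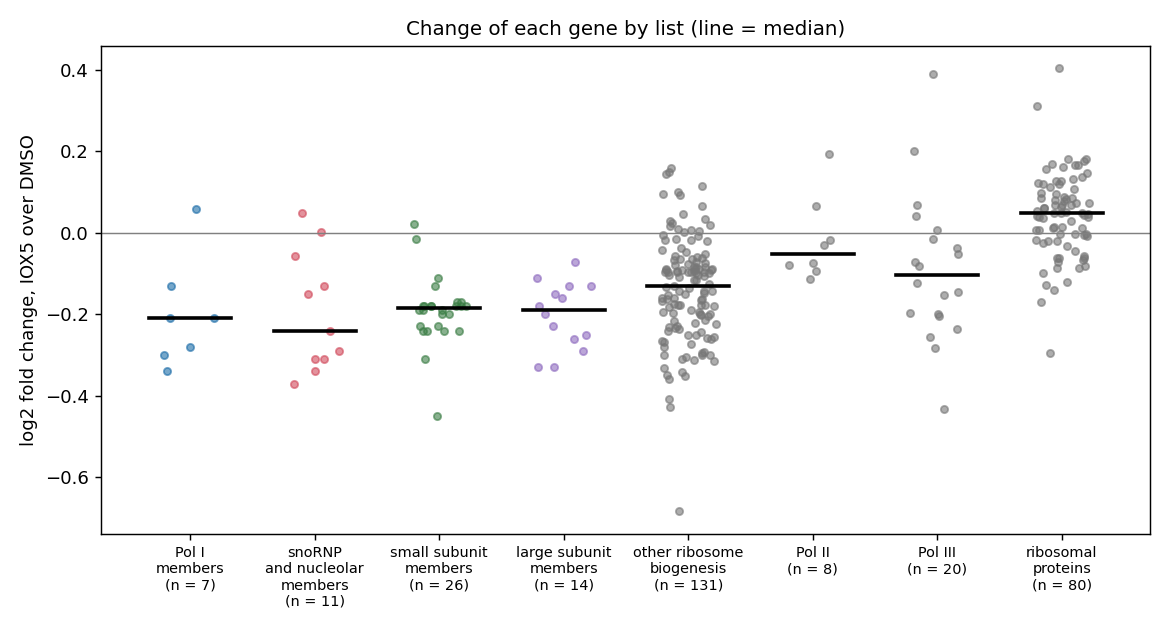
Log2 fold change of each gene, IOX5 over DMSO (y axis), for the 4 groups of the 58 genes (coloured) and for 131 other ribosome biogenesis genes, 8 Pol II subunits, 20 Pol III genes and 80 ribosomal protein genes (grey), with black lines at the medians. The medians of the 4 groups lie between -0.24 and -0.18, and that of the ribosomal proteins at 0.05.

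Genes of proliferation and of the MYC network were read from the same fits, and their part in the result was not tested. *Mki67*, a marker of proliferating cells, fell from 811.1 ± 36.7 to 500.6 ± 38.7 CPM (-0.70 ± 0.070, edgeR adjusted p = 0.0143) and was lower in 4 of 4 pairs. In IOX5 replicates 1 to 4 it was at 527.6, 506.3, 524.3 and 444.4 CPM. In DMSO replicates 1 to 4 it was at 805.0, 860.8, 806.5 and 772.3 CPM, so replicate 4 was lowest in both groups. The biogenesis genes lay nearest DMSO in IOX5 replicate 4 (median -0.03). *Myc*, a transcription factor that drives growth genes, was higher in 3 of 4 pairs, at 136.6, 82.4, 122.6 and 165.2 CPM in DMSO and 151.5, 98.8, 160.5 and 164.5 CPM in IOX5 (0.18 ± 0.22, edgeR adjusted p = 0.687, with the replicate term 0.0683). *Mxi1*, a repressor that competes with MYC for its partner MAX, differed by 0.42 ± 0.19 (edgeR adjusted p = 0.265, with the replicate term 0.00117). *Max* itself was at 86.8 ± 6.77 and 88 ± 11.7 CPM. *Mycn* was low, at 2.05 ± 2.02 CPM in DMSO and 3.62 ± 3.35 in IOX5, and higher in 4 of 4 pairs. Its log2 fold change was 0.83 ± 0.97 (edgeR adjusted p = 0.676, with the replicate term 0.0438). *Mxd1* differed by 0.10 ± 0.096 (edgeR adjusted p = 0.622, with the replicate term 0.449).

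Markers of several blood cell types were higher with IOX5. Each list held 10 genes, of which those with enough reads were tested. With the replicate term edgeR called higher 7 of 7 tested mast cell and basophil markers, 6 of 10 granulocyte, 5 of 10 myeloid progenitor, 4 of 6 megakaryocyte, 3 of 6 erythroid and 2 of 7 macrophage markers, and called none lower. Of the 3 stromal or endothelial markers tested 1 was called higher (*Pecam1*), and the 1 lymphoid marker tested was not called. Over all genes 11.2% were called higher in that fit and 9.43% lower. Without the term 1 megakaryocyte marker was called higher, against 0.774% of all genes. The summed macrophage markers, led by *Csf1r*, were at 197.3, 209.6, 149.6 and 182.8 CPM in DMSO and 237.9, 503.8, 255.8 and 228.3 CPM in IOX5. Replicate 2 had the highest sum in both groups. In DMSO this order followed *Csf1r*, at 64.3, 99, 77.8 and 92.7 CPM, while *Adgre1*, *Mrc1* and *Cd68* were highest in DMSO replicate 1. The biogenesis genes had their lowest median of the IOX5 samples in IOX5 replicate 2 (-0.37). Their highest of the DMSO samples was in DMSO replicate 2 (0.06). How marker levels relate to the biogenesis genes was not tested. The summed mast cell and basophil markers, led by *Mcpt8*, were at 264.4, 154.1, 623.9 and 564.0 CPM in DMSO and 323.9, 294.7, 942.0 and 752.2 CPM in IOX5, with *Mcpt4* at 0 reads. The megakaryocyte markers, led by *Itga2b*, summed to 57.6 CPM in DMSO and 111.7 in IOX5 on average, with *Gp1bb* at 0 reads. The granulocyte markers, led by *Ctsg*, summed to 3987 and 4655 CPM, and the erythroid markers, led by *Gata1*, to 27.2 and 44.6 CPM. The stromal and endothelial markers summed to 146.1 and 193.0 CPM, of which *Pecam1*, also expressed on blood cells, made up 142.2 and 189.3 CPM. The other 2 tested were at lower means in IOX5, *Col1a1* at 0.947 and 0.77 CPM and *Pdgfrb* at 1.66 and 1.37 CPM, and *Col1a2* had 0 reads. The lymphoid markers with 0 reads included *Cd3g*, *Cd4*, *Cd8a* and *Ms4a1*, and the list, led by *Cd79b*, summed to 4.76 and 5.14 CPM.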

How the data were processed

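The 8 libraries were poly(A)-selected and strand-specific. Per the labels and the study's methods, the authors trimmed reads with cutadapt 1.18, aligned them to GRCm38 with HISAT2 2.2.1 and counted them per gene with HTSeq 2.0.1, and the deposited values are raw read counts. Between 20.6% and 22.6% of the reads of a library lay in the summary lines of the files (no feature, ambiguous, not unique) and were left out. Of 54838 gene IDs, 54809 matched GENCODE M21, which gave symbols and lengths.

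Counts were tested with edgeR 4.0.16 (R 4.3.3): filterByExpr, TMM factors and a quasi-likelihood test of IOX5 against DMSO over 12405 genes, with Benjamini-Hochberg adjustment and a threshold of 0.05. The alternatives added the replicate number as a block, DESeq2 1.42.0, limma 3.58.1 voom with sample weights, other scalings and filters, samples left out and, added after the data were seen, removal of a length trend. The block was read as a pairing because deviations from the group means correlated between samples of equal number (0.758, 0.744, 0.732 and 0.636 for numbers 1 to 4), although numbers 3 and 4 also resembled each other (0.685 and 0.617). Between samples of a group the chi-square per degree of freedom was 2.16 (DMSO replicates 3 and 4) to 40.9 over the 58 genes, so none was counted as a duplicate. On simulated data for this comparison (12324 genes), edgeR recovered 14 of 100 genes changed by 0.5 on the log2 scale. It recovered 76 of 100 changed by 1, with 0 false calls. With the block it recovered 94 and 100, with 9 false calls. The simulated counts were given deviations shared by equal replicate numbers and 1 dispersion, taken from the model with the block. The simulation therefore cannot say whether the block suits the real samples.

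The genes and lists were chosen with earlier results of these data known. All 58 genes could be named, and of the other lists the 3 with the smallest p in each direction. Strand was checked with *Xist* (105071 reads) against *Tsix* (21). A gene on the opposite strand overlaps an exon of 21 of the 58 genes.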

Additional observations from a re-analysis of the deposited data

Results flagged for a closer look

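In 4 of the 116 sets of 4 samples examined (58 genes in each group), 1 sample stood far from the others, its gap to the nearest being above the 95% critical value of Dixon's test. Chance flags about 1 in 20 such sets. *Polr1b* was at 56.2 CPM in IOX5 replicate 2 and at 72.5 to 73.5 in the other IOX5 samples. *Nop56* was at 269.5 CPM in DMSO replicate 4 and at 236.0 to 239.0 in the other DMSO samples. *Nop58* was at 354.8 CPM in DMSO replicate 1 and at 402.3 to 407.3 in the others. *Utp6* was at 166.8 CPM in DMSO replicate 2 and at 143.8 to 146.4 in the others. The causes were not tested.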

How the results depend on the processing

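Direction held better than the calls. Over the 24 alternatives 52 of the 58 genes were lower in every fit, the count of lower genes was 52 to 57, and the medians of the 58 genes and of the 4 groups stayed below 0. The counts of calls moved. Over all genes edgeR called 251 (96 higher and 155 lower). The replicate block gave 2564 (1394 higher and 1170 lower), DESeq2 1091 (489 and 602), DESeq2 with the block 1727 (950 and 777), voom 1036, no filter on low counts 152 (79 and 73), the block without replicates 2 and 4 1940, the block with the length trend removed 2731, and an adjusted p under 0.1 818. With upper-quartile factors 101 were higher and 108 lower. Without single samples it was 0 to 463 (0 without DMSO replicate 3 or 4, or without replicate 3 of IOX5, with 877 to 1172 lower and 886 to 969 higher at an unadjusted p under 0.05), and with the block 1644, 2135, 1045 and 2413 without numbers 1 to 4. Of the 58 genes, 2 in the report, the block called 22, DESeq2 9, DESeq2 with the block 18, voom 12, the block without replicates 2 and 4 14, the block with the length trend removed 17 and an adjusted p under 0.1 6. RLE factors, upper-quartile factors, library totals and no filter gave 0 (26 to 28 lower at an unadjusted p under 0.05). Leaving out samples gave 0 to 9, and with the block 6 to 33. For the other ribosome biogenesis genes, 1 in the report, the counts in the same order were 30, 14, 22, 14, 19, 32 and 10, without single samples 0 to 10 and with the block 11 to 35.

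Leaving out samples moved the median of the 58 genes between -0.26 and -0.15, and with the block between -0.24 and -0.13. The signs that turned were those of genes near 0. *Fbl* was at -0.014 with the block, -0.0037 with DESeq2 and the block, -0.024 with voom, -0.021 with the block without replicates 2 and 4, -0.058 with the length trend removed and -0.066 with that and the block. *Nop10* was at -0.013 and -0.019 with the length trend removed, without and with the block. *Nob1* was at -0.0046 and -0.0077 in the same fits. *Imp3* was at 0.0028 with upper-quartile factors and 0.00094 with the block without replicates 2 and 4. *Gar1* was at 0.022 in that last fit. Without single samples *Polr1c* ran from -0.024 to 0.11, *Fbl* from -0.14 to 0.078, *Nop10* from -0.004 to 0.14, *Gar1* from -0.16 to 0.041, *Imp3* from -0.14 to 0.076 and *Nob1* from -0.044 to 0.088. With the block and a replicate number left out they ran from -0.00081 to 0.1, -0.12 to 0.082, -0.034 to 0.11, -0.14 to 0.058, -0.093 to 0.051 and -0.016 to 0.072 in the same order, with *Fbl* at -0.007 and *Imp3* at 0.0021 without number 3 and *Nob1* at -0.0015 without number 1. The causes were not tested. On simulated data at this depth edgeR without the block recovered 14 of 100 genes changed by 0.5 on the log2 scale, and smaller changes were not simulated.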
